A study of Mus musculus with 16 samples.

Results

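Aquaporins are channels that let water cross cell membranes. Described here are 3 of them, Aqp1, Aqp3 and Aqp8, out of 2247 mouse genes listed in either of the study's expression tables. They were taken by name: every row of these genes in the 4sU table and in the fetal liver table was used, with every peak that the authors assigned to one of them as the nearest gene. Aqp3 had a row in both tables and 2 of the 5326 KLF1 peaks. Aqp1 and Aqp8 had a row in the liver table only, and none of the 3 genes had any of the 2758 Nan-KLF1 peaks. Most listed genes had none: 15.5% of the liver table and 26.5% of the 4sU table had a Nan-KLF1 peak.

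The study compared KLF1, an erythroid transcription factor with zinc fingers, with Nan-KLF1, a mutant form. K1 cells are erythroblasts without KLF1, and the lines K1-ER and K1-NanER are K1 cells that carry KLF1-ER or Nan-KLF1-ER, fusions that tamoxifen activates. Binding was measured by ChIP-seq with a KLF1 antibody after 3 h of 200 nM 4-hydroxytamoxifen, with 1 ChIP and 1 input library per line, each made from 3 pooled replicates. New RNA was labelled for 1 h with 500 uM 4-thiouridine (4sU) in cells given 200 nM 4-hydroxytamoxifen. There were 2 libraries each of K1-ER (2 clones), K1-NanER (2 clones) and parental K1 cells. Polyadenylated RNA came from whole fetal livers at embryonic day 14.5, 3 of genotype Klf1+/+ and 3 of genotype Nan/+, after removal of globin RNA. Both livers and cells thus differ from their reference in KLF1, but the liver carries 1 Nan allele beside a normal one, whereas K1-NanER has Nan-KLF1 with no normal KLF1.

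Aqp1 is the main water channel of the red cell membrane and carries the Colton blood group; capillary endothelium and kidney also make it. Aqp3 is an aquaglyceroporin, which passes glycerol as well as water, and carries the GIL blood group of human red cells. Aqp8 passes water, ammonia and hydrogen peroxide and is known from hepatocytes, pancreas and colon. KLF1 binds CACCC-type elements in the promoters and enhancers of red cell genes.

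The 3 genes did not move together. Aqp3 was bound by KLF1 at its promoter, its new RNA was 2.32-fold higher in K1-ER than in K1, and its RNA was 6.49-fold lower in Nan/+ than in wild-type liver. Aqp1 and Aqp8 were 3.16-fold and 3.38-fold higher in Nan/+ liver, and neither had a peak of either factor. Each level is the authors' FPKM (fragments per kilobase of transcript, scaled to the mapped fragments), with 1 value per group and no value per library. No spread between replicates can therefore be given, and every p-value and q value (a p-value adjusted for many genes) is the authors'. The labels name separate clones of K1-ER and K1-NanER, but no separate cultures of K1 and no litters or animals for the liver libraries. The p-values can reflect only these samples, and part of the spread between them may be technical. How the p-values treat that spread is not known here. The tables hold no counts, so the depth is unknown.

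Both KLF1 peaks of Aqp3 lay close to the gene, which spans chr4:41039757-41045216 on build mm9, on the minus strand. The stronger one, chr4:41044957-41045741, was placed in the promoter by the authors. Its summit, at position 41045270, lay 54 bp before the gene start, and its fold enrichment of ChIP over input was 105.38, the authors' value as for every peak here. The second peak, chr4:41036492-41037106, was classed as distal, with a fold enrichment of 62.78. Its summit lay 8294 bp past the start along the direction of transcription, 2835 bp beyond the far end of the gene. Thus 1 peak sat at the start of Aqp3 and the other behind its end.

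Neither peak stood out by height. The promoter peak was higher than 58.4% of the 1564 KLF1 promoter peaks, whose median fold enrichment was 88.79, and the distal one was higher than 41.8% of the 1279 distal peaks, with a median of 71.44. Both had the same central motif in the authors' list, CCCCACCC. That 8-letter form was the central motif of 515 KLF1 peaks (9.67%) and 69 Nan-KLF1 peaks (2.50%). Of the 515 KLF1 peaks with it, 37 (7.18%) intersected a Nan-KLF1 peak in the authors' own intersection, against 761 (14.3%) of all KLF1 peaks. Both Aqp3 peaks were among those without an intersection, and no Nan-KLF1 peak overlapped either by even 1 bp.

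**Figure D1:**
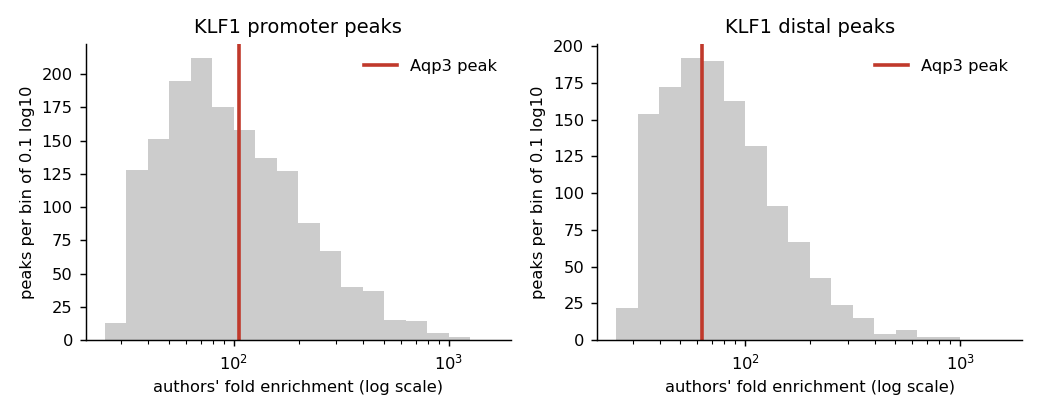
Fold enrichment of all KLF1 promoter peaks (left) and distal peaks (right), as the number of peaks (vertical axis) per bin of fold enrichment on a log axis. The red lines mark the Aqp3 promoter peak at 105.38 and the Aqp3 distal peak at 62.78, both in the middle of their class.

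The promoter sequences of the 3 genes are shown because the Aqp3 peak lies there and because Aqp1 and Aqp8 have no peak. Each line gives the 250 bases before the RefSeq gene start on build GRCm38.p6, 5′ to 3′ on the strand of the gene. Capitals mark CACCC and CCCCACCC on either strand, so that GGGTG is CACCC on the other strand. The intervals are chr4:41098184-41098433 (minus strand) for Aqp3, chr6:55336049-55336298 (plus strand) for Aqp1 and chr7:123462044-123462293 (plus strand) for Aqp8.
Aqp3: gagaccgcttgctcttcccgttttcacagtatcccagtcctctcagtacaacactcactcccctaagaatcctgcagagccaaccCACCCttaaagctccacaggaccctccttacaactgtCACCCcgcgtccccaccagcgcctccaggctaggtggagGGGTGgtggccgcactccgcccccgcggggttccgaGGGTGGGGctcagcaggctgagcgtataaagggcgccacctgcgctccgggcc
Aqp1: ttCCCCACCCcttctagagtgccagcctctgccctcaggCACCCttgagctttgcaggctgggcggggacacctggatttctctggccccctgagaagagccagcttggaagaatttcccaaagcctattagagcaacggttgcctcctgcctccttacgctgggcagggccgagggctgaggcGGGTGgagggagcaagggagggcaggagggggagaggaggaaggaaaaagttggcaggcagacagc
Aqp8: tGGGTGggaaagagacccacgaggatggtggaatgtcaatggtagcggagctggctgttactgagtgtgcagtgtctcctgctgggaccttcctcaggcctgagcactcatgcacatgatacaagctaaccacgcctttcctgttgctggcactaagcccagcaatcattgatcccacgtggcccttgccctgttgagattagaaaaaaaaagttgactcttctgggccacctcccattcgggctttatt

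The Aqp3 promoter held CACCC at 4 places and the motif of its peak at 1. CCCCACCC lay on the opposite strand, 53 to 46 bases before the start, and the peak summit lay 54 bp before the start, each distance counted in its own build. As many CACCC elements or more were found in 2.14% of the 32817 RefSeq promoters of the same 250 bases, and CCCCACCC on either strand in 9.05%. Every CCCCACCC contains a CACCC, so the 2 searches overlap. In the Aqp1 promoter CACCC was found at 3 places, a number reached by 6.92% of promoters, and CCCCACCC at 1, from 248 to 241 bases before the start. The related form CCCCGCCC, found in 16.1% of promoters, lay 190 to 183 bases before the start on the other strand of Aqp1. For Aqp8 the same search gave a single CACCC, 249 to 245 bases before the start, while 52.0% of promoters had at least 1. GC content followed the same order, with 64.0% for Aqp3, 62.0% for Aqp1 and 52.4% for Aqp8, which was also the median of all promoters. The letters of the peak's motif were thus present in the Aqp1 promoter as well, where neither list had a peak.

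The wider surroundings of the 3 genes differed in the number of peaks. Within 300 kb of Aqp3 there were 10 KLF1 peaks and 1 Nan-KLF1 peak. Over the 2247 loci of the expression tables the median was 4 KLF1 and 2 Nan-KLF1 peaks, and 15.6% of loci had 10 or more KLF1 peaks. The highest near Aqp3, with a fold enrichment of 287.65, was the promoter peak of Bag1, a co-chaperone gene, at a distance of 149.8 kb from the Aqp3 start, and its central motif was also CCCCACCC. The single Nan-KLF1 peak, chr4:41003912-41004311, had a fold enrichment of 87.73 and the central motif CCAAGCCC. The authors assigned it to Aqp7, the aquaglyceroporin of fat cells and the next protein-coding gene beside Aqp3 in RefSeq. Its summit lay 35.7 kb from the Aqp3 locus. On the other side, 2 KLF1 peaks were assigned to Ube2r2, a ubiquitin-conjugating enzyme gene, with fold enrichments of 52.3 and 84.99.

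Aqp1 (chr6:55286293-55298549, plus strand, mm9) had no peak of either factor within 300 kb. That held for 12.4% of loci with KLF1 and for 22.1% with Nan-KLF1. Aqp8 (chr7:130605808-130611517, plus strand, mm9) had 1 of each, both assigned to other genes. The KLF1 peak, of fold enrichment 39.24, lay 91.8 kb from the gene and was assigned to Zkscan2, and the Nan-KLF1 peak, of 116.97, lay 108.2 kb away in an intron of Arhgap17. With 1 library per factor, these peak lists have no replicate check.

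**Figure D2:**
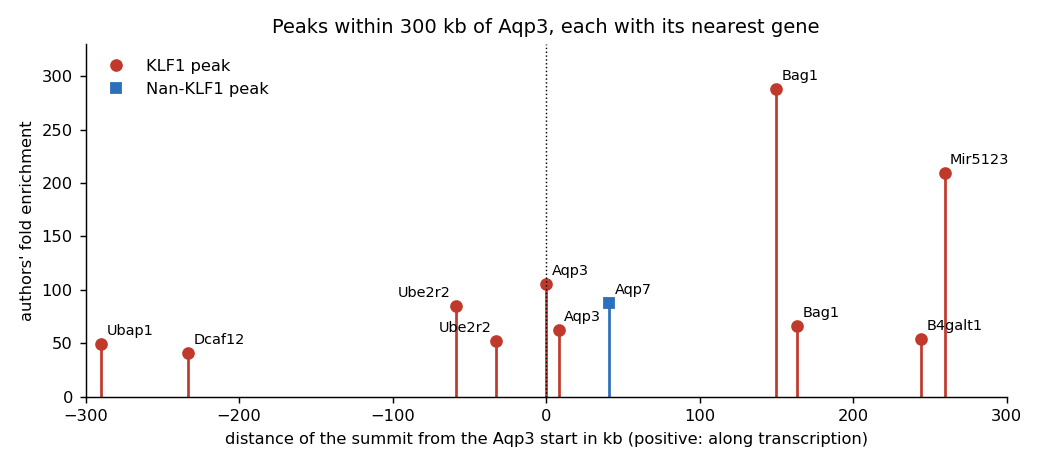
Peaks of KLF1 (red circles) and Nan-KLF1 (blue square) within 300 kb of Aqp3, by the distance of the summit from the Aqp3 start in kb (horizontal axis) and the authors' fold enrichment (vertical axis), each labelled with its nearest gene. The 2 Aqp3 peaks stand at 105.38 and 62.78, and the 1 Nan-KLF1 peak, at 87.73, belongs to Aqp7.

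New transcription of Aqp3 was compared next. The authors' deposited table gave a level of 33.6 FPKM with KLF1-ER, 14.5 FPKM in the parental K1 cells and 8.39 FPKM with Nan-KLF1-ER. The level was thus highest with KLF1-ER and lowest with Nan-KLF1-ER, with the parental cells between. K1-ER was 2.32-fold above K1 in the authors' deposited table, a log2 fold change of 1.22 (p = 0.0014, q = 0.0294), and passed the q of 0.05 used for all calls here. The lower level in K1-NanER did not pass, with a log2 fold change of -0.79 (p = 0.0711, q = 0.342) in the authors' deposited table. Of the 1556 genes of that table, which lists only genes called in at least 1 of its comparisons, 49.4% were called in K1-ER and 37.9% were called as higher. The share called in K1-NanER was 75.7%, with 47.4% higher and 28.3% lower, and Aqp3 was not called there. Given how the list was made, every gene not called in K1-NanER was called in K1-ER, as Aqp3 was. Of 10 erythroid markers 8 had a row in this list of called genes. All 8 were higher in K1-ER and 6 in K1-NanER, beside 37.9% and 47.4% of the table.

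Among 589 genes that rose, 83.0% rose by more, and their median log2 fold change was 1.89. Its locus of 5460 bp fell in the bin of the shortest loci when the table was divided into 5 bins of length. In that bin the called genes that rose made up 73.8% in K1-ER and 40.1% in K1-NanER, against 73.5% and 84.6% in the bin of the longest loci. What part locus length had in the low K1-NanER value of Aqp3 was not tested.

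Set side by side, Aqp3 was 4.01-fold higher in K1-ER than in K1-NanER. The authors' table holds no test of this difference, and none can be made from 1 value per group. A ratio of K1-NanER to K1-ER as low as that or lower was seen in 92 of 1556 genes (5.91%), and the median log2 ratio was -0.26. Esr1, the oestrogen receptor gene whose ligand-binding part such fusions carry, stood in the authors' deposited table at 135.5 FPKM for K1-ER against 70.3 FPKM for K1-NanER. This is a 1.93-fold difference in the same direction, and its part in the Aqp3 ratio was not tested. Each line was a set of clones compared with parental cells, and differences between clones cannot be told apart from those of the factor.

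Of the 11 aquaporin genes listed for this work, Aqp9 was the other one in the 4sU table. It is an aquaglyceroporin known as the main glycerol channel of mouse red cells and of hepatocytes (chr9:70958466-71011096, mm9). The authors' deposited table put it at 6.01, 14.0 and 17.9 FPKM in K1, K1-ER and K1-NanER. It rose in K1-NanER, with a log2 fold change of 1.58 (q = 0.00669), and in K1-ER it had a value of 1.22 that did not pass (q = 0.0563), both from the authors' deposited table. The order of the group values thus differed between both glycerol-passing channels: K1-NanER was lowest for Aqp3 and highest for Aqp9. The lower Aqp3 value in K1-NanER did not pass against K1 (authors' q = 0.342). For Aqp9 the authors give no p-value for K1-NanER (17.9 FPKM) beside K1-ER (14.0 FPKM). The Aqp9 locus of 52631 bp fell in bin 4 of the 5 bins of length, counted from the shortest. In that bin 75.5% of the genes called in K1-NanER were higher, against 40.1% in the bin of Aqp3. What part locus length had in these orders was not tested. No peak of either factor had Aqp9 as nearest gene. Beside those of Aqp3, the family had a KLF1 peak at Aqp11, an intracellular aquaporin, of fold enrichment 82.21 in a UTR, and the Nan-KLF1 peak at Aqp7.

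A further 3 genes had nearly the same pattern of new RNA as Aqp3, by the distance between both log2 fold changes over all genes of the table. They were Pqlc1, a gene of the PQ-loop family of membrane proteins, at a distance of 0.05, Map3k11, a mitogen-activated kinase of the JNK pathway, at 0.12, and B4galt2, a galactosyltransferase, at 0.19. Pqlc1 was at 14.0, 33.4 and 8.23 FPKM by the authors' deposited table (K1, K1-ER, K1-NanER), close to Aqp3 in all 3 groups. Each of these genes had a KLF1 peak and no Nan-KLF1 peak, with 2 for Pqlc1 and 1 for each of the others. The share of genes with a KLF1 peak and no Nan-KLF1 peak was 24.1% over the whole 4sU list and 31.4% over the genes that rose in K1-ER.

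Other transport genes of the red cell membrane were described from a list of 31 that does not include aquaporins. It had 7 members in the 4sU table, none of which fell in K1-ER, beside 179 of the 1556 genes of the table. Of the 7 members 6 rose there, beside 37.9% of the table. Their median log2 fold change was 1.13, against 0.72 over the table. They were Kcnn4, the Gardos potassium channel, Slc4a1, the anion exchanger of the red cell membrane, Rhd, a Rhesus protein, Slc2a1, a glucose transporter, Atp2b1, a calcium pump, and Stom, stomatin. For Kcnn4 the authors' deposited table gave 11.8, 75.6 and 15.2 FPKM in K1, K1-ER and K1-NanER. Slc4a1 was at 2.00, 6.79 and 1.43 FPKM in the same order in the authors' deposited table. In K1-NanER 1 member rose, Atp2b1, and 1 fell, Abcb6, a porphyrin transporter, beside 47.4% and 28.3% of the table. The median of the 7 was 0.14 against 1.04 over the table. Of the 31 listed genes, 19 had a KLF1 peak and 9 a Nan-KLF1 peak. Over the 4sU table, another set of genes, the shares with a peak were 45.8% and 26.5%. No member of it had a row in the liver table.

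Steady-state RNA of all 3 aquaporins differed between Nan/+ and wild-type liver. For Aqp3 the authors' deposited table gave 12.8 FPKM in wild-type liver against 1.97 FPKM in Nan/+, a log2 fold change of -2.70 (p = 5e-05, q = 0.00244). By the authors' deposited table Aqp1 had 45.7 FPKM in wild-type and 144.6 FPKM in Nan/+ liver, with a log2 fold change of 1.66 and the same p and q. Aqp8 was at 2.39 and 8.08 FPKM, a log2 fold change of 1.76, again with the same p and q in the authors' deposited table. Aqp1 was the most abundant of the 3 per length in both genotypes, and Aqp3 and Aqp8 changed places, with Aqp3 above Aqp8 in wild type and below it in Nan/+. All 793 genes of the liver table were called and changed by 1 log2 unit or more, 75.4% higher and 24.6% lower in Nan/+, so the calls of Aqp1 and Aqp8 are those of most listed genes. The p of 5e-05 is the smallest in the table and is shared by 284 genes.

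**Figure D3:**
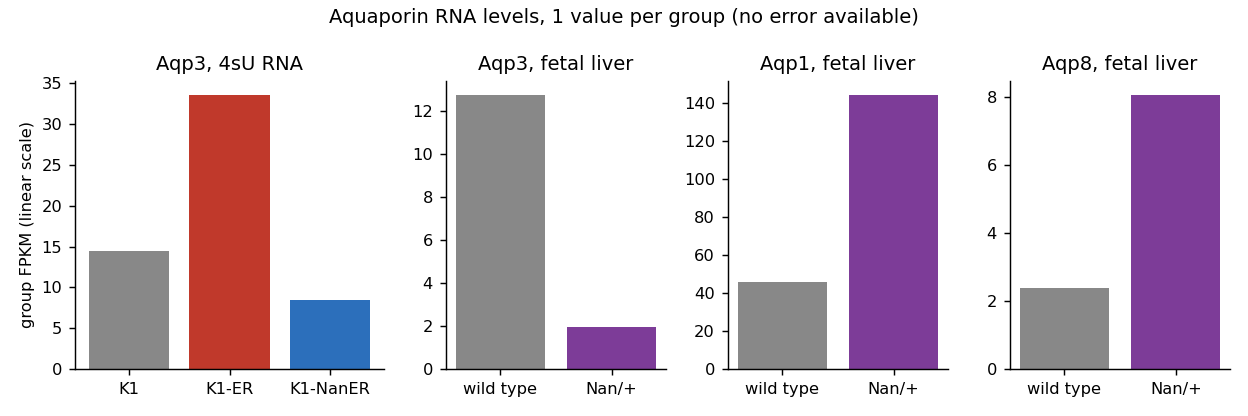
Group levels of Aqp3 in 4sU RNA of K1, K1-ER and K1-NanER cells (left) and of Aqp3, Aqp1 and Aqp8 in wild-type and Nan/+ fetal liver, in FPKM on linear axes that differ between panels. Each bar is the authors' single value of a group. In cells Aqp3 is lowest in K1-NanER (8.39), a difference from K1 that did not pass (authors' q = 0.342). In liver it is lower in Nan/+ (1.97) than in wild type.

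Among the genes that fell in Nan/+ liver, Aqp3 ranked 24 of 195 by size, and the median of these genes was -1.32. Aqp8 and Aqp1 ranked 158 and 180 of the 598 genes that rose, whose median was 1.37. The level of Aqp1 in Nan/+ was above the higher level of 86.3% of the listed genes. For Aqp8 that share was 31.5% and for Aqp3, by its wild-type level, 38.7%. The 3 values thus cover an abundant gene and less abundant ones.

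**Figure D4:**
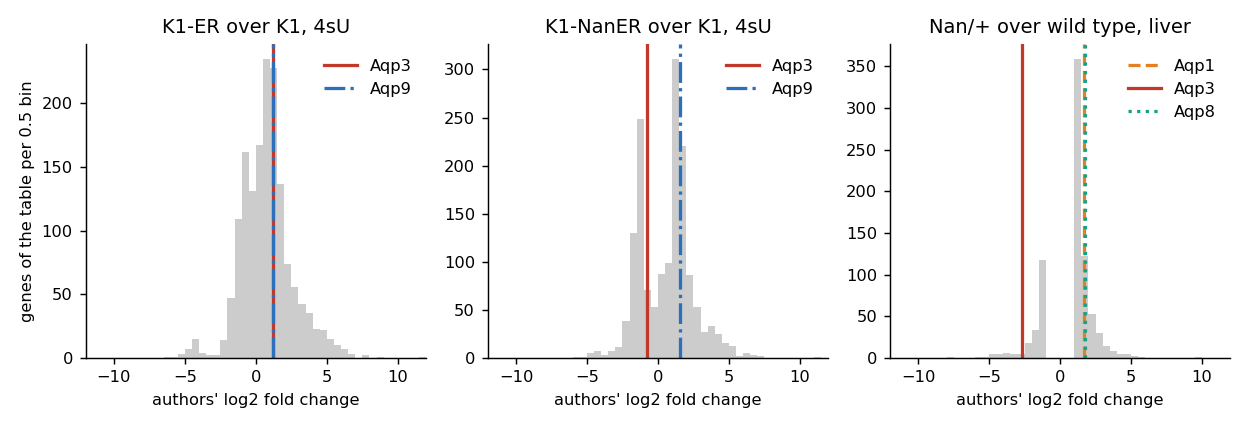
Log2 fold changes of all genes in the authors' tables (horizontal axis) as the number of genes per bin of 0.5 (vertical axis), for K1-ER, K1-NanER and liver. The lines mark Aqp3 at 1.22, -0.79 and -2.70, Aqp9 at 1.22 and 1.58 in the cells, and Aqp1 at 1.66 and Aqp8 at 1.76 in liver.

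Whole liver holds many cell types, and in such bulk RNA fewer cells of a type and less RNA per cell cannot be told apart. By the authors' deposited table, markers of several types moved with the genotype. All 8 listed granulocyte markers were higher in Nan/+, with a summed level of 2725 FPKM against 459.9 FPKM in wild type, as were 2 of 8 macrophage markers (79.9 against 38.0 FPKM), 3 of 5 of mast cells and basophils (9.46 against 1.26 FPKM) and 2 of 6 of megakaryocytes (635.3 against 250.4 FPKM). All 6 skeletal muscle markers were lower, at 1.75 against 43.5 FPKM. Of all genes listed for liver, 75.4% were higher in Nan/+ and 24.6% were lower. The remaining markers of macrophages, of mast cells and basophils and of megakaryocytes had no row, so whether they changed is not known here. Of 10 erythroid markers 2 had a row, Hba-x and Hbb-bh1, which encode embryonic globin chains, and both were higher. What the removal of globin RNA from these libraries did to both levels was not tested. The remaining erythroid markers had no row, so whether they changed is not known here. None of the 12 hepatocyte and none of the 7 endothelial and stromal markers had a row in this table of called genes, so their levels are not known here. Xist, made by female cells, had 25.1 FPKM in wild type against 0.04 FPKM in Nan/+, by the authors' deposited table. The part of any of these in the values of Aqp1, Aqp3 and Aqp8 was not tested.

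Aqp3 was 1 of 25 genes that rose in K1-ER and were lower in Nan/+ liver. These make up 4.24% of the 589 genes that rose in K1-ER and 12.8% of the 195 that fell in liver. Of the 64 genes that rose in K1-ER and had a liver row, the other 39 were higher in Nan/+, beside 75.4% of the whole liver table. By the size of the fall in liver Aqp3 came directly after Epb4.9, which encodes the cytoskeletal protein dematin, and before E2f2, a cell cycle transcription factor. By the size of the rise in K1-ER it came at place 22 of 25. A KLF1 peak was assigned to 22 of the 25 genes (88.0%), and 13 (52.0%) had a KLF1 peak and no Nan-KLF1 peak, as Aqp3 did. The share with a KLF1 peak was 71.1% over the genes that rose in K1-ER and 36.4% over those that fell in liver. For a KLF1 peak without a Nan-KLF1 peak the shares were 31.4% and 26.2%. K1 cells have no KLF1, and their levels were not compared with those of liver, which come from another kind of library.

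Over all 3 fold changes, among the 102 genes in both tables, the pattern of Aqp3 was nearest to those of E2f2 (distance 0.60), Fam132b (0.68) and Pqlc1 (0.81). Fam132b encodes erythroferrone, the red cell hormone that lowers hepcidin. E2f2 had 3 KLF1 peaks and 1 Nan-KLF1 peak, while Fam132b and Pqlc1 had 1 and 2 KLF1 peaks and no Nan-KLF1 peak. Of the 102 genes, 63.7% had a KLF1 peak and 34.3% a Nan-KLF1 peak. E2f2 was at 43.4, 150.5 and 26.0 FPKM in K1, K1-ER and K1-NanER, and at 94.3 and 16.1 FPKM in wild-type and Nan/+ liver by the authors' deposited table. Fam132b was at 7.18, 22.1 and 5.14 FPKM and at 4.99 and 1.06 FPKM, and the liver levels of Pqlc1 were 40.5 and 10.9 FPKM, by the authors' deposited table. These genes were picked for their likeness to Aqp3, so a shared order of the cell values follows from the choice. In none of the 4 did the difference of K1-NanER from K1 pass, with q of 0.342 for Aqp3, 0.173 for E2f2, 0.628 for Fam132b and 0.314 for Pqlc1 in the authors' deposited table.

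**Figure D5:**
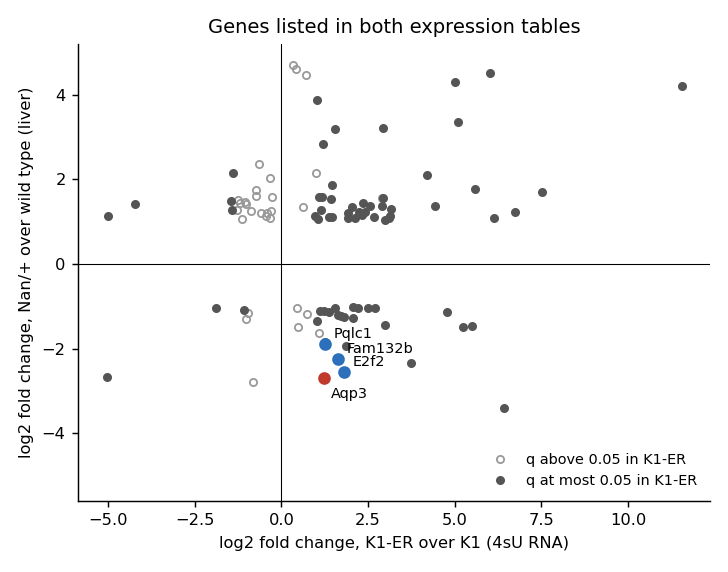
Log2 fold changes of the 102 genes in both tables, K1-ER over K1 (horizontal axis) and Nan/+ over wild-type liver (vertical axis); filled points passed a q of 0.05 in K1-ER and open ones did not. Aqp3 (red) lies at 1.22 and -2.70, near E2f2, Fam132b and Pqlc1 (blue).

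In liver alone, the genes with the fold change most like that of Aqp1 were Ebpl, S100a13 and Rras2, at log2 fold changes of 1.67, 1.65 and 1.67. For Aqp8 they were Rtp4, Tuft1 and Prg2, at 1.76, 1.76 and 1.74, and for Aqp3 Crabp2, Rgcc and Chac1, at -2.68, -2.64 and -2.79, all in the authors' deposited table. These are likenesses in a single number over 793 genes. Of these 9 genes, Rgcc and Tuft1 had peaks of both factors and the other 7 had none, in a table where 25.0% of genes had a KLF1 peak and 15.5% a Nan-KLF1 peak.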

How the data were processed

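The data were 4 processed tables: genes of the 4sU comparison, genes of the liver comparison, and the annotated peaks of KLF1 and of Nan-KLF1. Expression is in FPKM, per the file headers, as 1 value per group. The log2 fold changes (a corrected one in liver), p-values and q values are those the authors deposited. Peaks carry a fold enrichment, a ratio the authors computed. Peak ranks are the authors' score within each list. TopHat2 2.0.10, MACS 1.4.2 and build mm9 are named in the submitters' processing notes; how levels were computed and how peaks were assigned a gene, class and motif is not given in the sources used here. Of the labels, the K1 samples name the same tamoxifen treatment as the others, while the header of the K1 column does not.

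No model was fitted, since the tables hold no value per library. Ratios, ranks, counts and distances were computed with Python 3.11.15, pandas 2.3.3 and numpy 2.4.6, and plots drawn with matplotlib 3.10.9. A gene was called at a q of at most 0.05. Gene starts are printed 1 higher than listed, because the locus of each of the 3 genes then has the length that RefSeq gives. Strand, neighbouring genes and promoter sequences come from RefSeq (GRCm38.p6), in which all 3 genes were matched by symbol; no position was converted between builds. Motifs were searched on both strands over 32817 promoters, with a search tested on simulated data. No listed K1 level is below 0.1 FPKM.

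Named were the 3 aquaporins, genes of the 4 lists (aquaporins, red cell transport, glycerol, hydrogen peroxide) and, per gene and table, the 3 nearest by Euclidean distance over the log2 fold changes. Esr1, Xist, Epb4.9 and the genes around Aqp3 were added after their values were seen. The members, lists and 8 marker lists were chosen with earlier results of these data known. Alternatives were other pseudocounts, a q of 0.01, a level of at least 1 FPKM, higher peaks, shorter distances and other overlap rules.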

Additional observations from a re-analysis of the deposited data

How the results depend on the processing

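A pseudocount added to both groups cannot change the direction of a fold change, so only the sizes are compared here. The value of Aqp3 in K1-ER was 1.21 with 0.1 FPKM added and 1.16 with 1 FPKM, in K1-NanER -0.78 and -0.72, in liver -2.64 and -2.21, and between K1-NanER and K1-ER -1.99 and -1.88. Aqp8 in liver was 1.72 and 1.42, and Aqp1 in liver 1.64 with 1 FPKM added. At a q of at most 0.01 the rise of Aqp3 in K1-ER (log2 fold change 1.22) was no longer called, whereas the 3 liver calls held, and the genes called numbered 462 of 768 in K1-ER, 638 of 1178 in K1-NanER and 377 of 793 in liver. Asking for at least 1 FPKM in the higher group removed no called gene in any comparison. Of the 2 KLF1 peaks of Aqp3, 1, the promoter peak, had a fold enrichment at or above the median of the list, and both lay within 100 kb. The count of 0 shared peaks could not change with an overlap of 50% of both peaks, which is a stricter rule. It was also 0 with centres up to 1000 bp apart, since the single Nan-KLF1 peak near Aqp3 lay 35.7 kb from its locus. No paired analysis was possible because the tables give 1 value per group, and for the same reason no replicate could be left out. The depth is unknown, so what it limits cannot be stated.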

Other observations

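Glycerol passes Aqp3 and Aqp9, and a list of 15 genes of glycerol handling had 2 members in the 4sU table. In K1-ER 1 rose and in K1-NanER 1 rose, beside 37.9% and 47.4% of the table. Dgat2, which makes triglycerides, rose in K1-ER, from 5.79 to 43.6 FPKM (q = 0.00213), and was at 13.1 FPKM in K1-NanER (q = 0.104), in the authors' deposited table. Gpd1l, related to glycerol phosphate dehydrogenase, was at 1.94 FPKM in K1, 5.19 FPKM in K1-ER (q = 0.0666) and 5.61 FPKM in K1-NanER (q = 0.0447) in the authors' deposited table. Both listed members in the liver table were higher in Nan/+, beside 75.4% of that table: Dgat2, from 32.3 to 83.5 FPKM, and the lipase Pnpla2, from 6.50 to 15.5 FPKM, by the authors' deposited table.

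Hydrogen peroxide passes Aqp3 and Aqp8, and 4 of 20 genes of its production and removal were in the 4sU table. In K1-ER 1 rose, the peroxiredoxin Prdx2, from 127.7 to 315.8 FPKM, and 1 fell, Srxn1, the sulfiredoxin, from 84.2 FPKM to a level of 4.49 FPKM, by the authors' deposited table. Of all 1556 genes of the table, 37.9% rose in K1-ER and 179 fell. In K1-NanER none rose and 3 fell, beside 47.4% and 28.3% of the table, in the authors' deposited table: the glutathione peroxidase Gpx1 from 141.1 to 20.5 FPKM, Srxn1 to 11.4 FPKM and the thioredoxin Txn1 from 39.0 to 11.5 FPKM. The 4 members in the liver table were all higher in Nan/+, beside 75.4% of that table. They were Sod1, a superoxide dismutase that makes hydrogen peroxide, from 612.7 to 2990 FPKM, Cyba, a subunit of the phagocyte oxidase, from 65.3 to 175.4 FPKM, Srxn1 from 12.3 to 32.9 FPKM and Prdx5 from 82.9 to 170.3 FPKM, by the authors' deposited table. Srxn1 was thus lower in both cell lines than in K1 and higher in Nan/+ than in wild-type liver. The granulocyte markers given above were also higher in Nan/+ liver, and their part in these values was not tested.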
